A study of Mus musculus with 4 samples.

Results

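The genes described here encode the mitochondrial fatty acid oxidation route and the use of ketone bodies. They were chosen by symbol: every probe whose gene name on the array was on a list of 29 genes was taken. The list matched 38 of 55681 probes and 29 of 34797 gene names, and 28 of its genes had a probe well above background on all 4 arrays, as did 18256 genes of the whole array. The cells were 3T3-L1, a mouse fibroblast line that can be turned into adipocytes in culture. All groups were induced to differentiate first and were then kept for 7 days with PBS (phosphate-buffered saline, the vehicle group), with 25 uM daidzein (a soy isoflavone), with 100 ug/ml PT (taken to be the pig testis extract named in the title of the series), or with daidzein and PT together at those doses. Total RNA of each group was read on 1 single-colour (Cy3) Agilent array, so no difference has a replicate check and no p-value is given. The study concerns adiponectin, a hormone made by adipocytes.

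Long-chain fatty acids enter mitochondria as carnitine esters. The CPT1 enzymes of the outer membrane make the ester, a translocase carries it inward and CPT2 returns the fatty acid to coenzyme A. Each turn of the beta-oxidation spiral then uses an acyl-CoA dehydrogenase, a hydratase, a hydroxyacyl-CoA dehydrogenase and a thiolase, and the electrons of the dehydrogenases pass through the electron transfer flavoprotein to the respiratory chain. Pyruvate dehydrogenase kinases switch off the entry of pyruvate, and so set the balance between glucose and fat as fuel. White adipocytes mainly store fat, and their mitochondria are known to multiply as fibroblast-like precursors become adipocytes.

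The promoters below belong to the 4 genes of the list with the largest daidzein+PT over PBS differences, and show which sequence elements stand before their start sites. Each is the 250 bases before the start site, read 5′ to 3′ on the gene's strand, from RefSeq on GRCm38.p6. Capitals mark the elements found in either orientation.
Cpt2, chr4:107923590-107923839, minus strand: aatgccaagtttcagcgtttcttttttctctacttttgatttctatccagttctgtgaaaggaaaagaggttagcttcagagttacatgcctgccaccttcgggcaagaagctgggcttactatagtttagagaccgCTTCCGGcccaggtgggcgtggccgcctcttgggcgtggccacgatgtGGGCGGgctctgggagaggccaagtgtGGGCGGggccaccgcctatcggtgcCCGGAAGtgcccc
Hadhb, chr5:30155003-30155252, plus strand: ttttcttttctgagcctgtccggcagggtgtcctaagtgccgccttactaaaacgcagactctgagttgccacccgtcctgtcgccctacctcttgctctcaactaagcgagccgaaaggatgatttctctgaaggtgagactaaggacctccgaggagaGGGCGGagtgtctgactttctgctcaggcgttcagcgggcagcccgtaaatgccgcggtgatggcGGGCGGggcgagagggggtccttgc
Acads, chr5:115119347-115119596, minus strand: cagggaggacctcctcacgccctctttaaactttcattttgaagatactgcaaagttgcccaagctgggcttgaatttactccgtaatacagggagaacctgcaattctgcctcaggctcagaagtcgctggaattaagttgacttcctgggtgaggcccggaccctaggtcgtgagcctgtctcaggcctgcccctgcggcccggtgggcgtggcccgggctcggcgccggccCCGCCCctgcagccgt
Acadvl, chr11:70015429-70015678, minus strand: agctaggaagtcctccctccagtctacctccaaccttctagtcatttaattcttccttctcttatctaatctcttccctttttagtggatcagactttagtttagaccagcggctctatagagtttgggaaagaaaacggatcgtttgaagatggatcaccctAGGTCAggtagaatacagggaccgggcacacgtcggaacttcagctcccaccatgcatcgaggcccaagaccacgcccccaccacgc
The capitals in the Cpt2 promoter are 2 CCGGAAG elements, the core bound by the ETS factor GABP, and 2 GC boxes (GGGCGG), and they do not overlap. The Hadhb promoter holds 2 GC boxes and the Acads promoter 1. The Acadvl promoter holds 1 AGGTCA, the hexamer recognised by many nuclear receptors.

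Promoters were listed for 23 of the 29 genes, 25 promoters in all, and 7 motifs chosen after the expression values were seen were counted on both strands beside all 32851 listed promoters of the same length. The element that PPARs bind, AGGNCA repeated after 1 base of any kind, was in the promoters of 0 of the 23 genes and in 0.338% of all promoters. TNAAGGTCA, bound by estrogen-related receptors, was likewise in 0 of 23 and in 1.14% of all. AGGTCA, which is also part of TNAAGGTCA, was found for 5 of 23 genes (Acadm, Acadvl, Cpt1a, Cpt1c and Echs1) and in 14.0% of all promoters. The NRF1 element, GCGCA followed by any base and GCGC, was found for 3 genes (Acad10, Etfb and Etfdh) and in 3.74% of all. CCGGAAG was found for 2 genes (Cpt2 and Slc25a20) and in 6.91% of all. GC boxes were found for 12 genes and in 32.7% of all promoters, and CCAAT for 11 genes and in 33.8%. These counts are of genes, while the shares of all are of promoters. Of the list's 25 promoters, AGGTCA was in 20%, the NRF1 element in 12% and CCGGAAG in 8%. GC boxes were in 48% of the 25 and CCAAT in 44%. A match is a string of letters in this window and not a measured binding site.

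Hadha and Hadhb, whose products form the trifunctional protein, are neighbours on chromosome 5 and are transcribed away from each other. Their start sites in GRCm38.p6 lie at 30154980 and 30155253 with 272 bases between them, so 228 bases (30155003 to 30155230) are common to both 250-base windows. Acot2 and Acot1 are also neighbours.

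Levels are given as scaled signal: the background-corrected spot intensity after each array was divided by its 75th percentile, brought to a common level of 328 at that percentile. A level can be compared between arrays for the same gene but not between genes, whose probes differ. Differences are on the log2 scale, where 1 is 2-fold. Between 49.7% and 51.4% of spots per array were well above background, and 0 spots were saturated. With no replicates, spread could be gauged only by how far the 2 pairs of arrays for the same agent disagree over all genes, which also takes in any real interplay of the agents. By this gauge the SD of a single log2 difference was 0.33 in the dimmest of 3 equal signal bins, 0.14 in the middle bin and 0.11 in the brightest. A single slide carried the 4 arrays, with both PT arrays in row 2 and the others in row 1, so PT and slide row cannot be told apart. Both daidzein arrays were in columns 2 and 4 and the others in columns 1 and 3, so daidzein and that split of columns cannot be told apart.

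Of the 28 measured genes, 21 were highest in the cells given both treatments, a pattern that was not counted over all genes. In 16 of them PBS was lowest, followed by PT, daidzein and the combination, and 13.1% of all genes had PBS lowest and the combination highest. With arrays scaled to their median in place of the 75th percentile, 15 were highest with both treatments (Slc25a20, Acadl, Acaa2, Etfa, Acot13 and Acat1 were not) and 0 had that order, because PT then lay below PBS. Daidzein+PT over PBS had a median log2 difference of 0.41 over the 28 genes, with a range from -0.57 to 1.28, and 21 of 28 were above 0. The median of all 18461 genes measured in that comparison was -0.03, and 45.5% of them were above 0. At least 2-fold higher were 3 genes of the list (Cpt2, Hadhb and Acads), beside 2.52% of all genes, and 0 were 2-fold lower, beside 0.547%. At least 1.5-fold higher were 11 of 28, beside 6.05% of all genes, and 0 were 1.5-fold lower, beside 2.95%.

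Daidzein alone gave a smaller difference of the same kind. Its median over PBS was 0.21 (range -0.37 to 0.68, 20 of 28 above 0), against -0.03 for all genes. None of the list was 2-fold higher or lower, beside 1.1% and 0.37% of all genes, and 3 were 1.5-fold higher (Cpt2, Hadhb and Acads), beside 3.1%. PT alone left the list near the level of PBS. Its median over PBS was 0.03 (range -0.28 to 0.20, 18 of 28 above 0), a value that turned to -0.21 with 0 of 28 above 0 when arrays were scaled to their median, a scaling that also moved the median of all genes from -0.02 to -0.27. Relative to the median of all genes, the list stood at 0.05 in both scalings. None of the list was 2-fold or 1.5-fold higher with PT alone, beside 0.877% and 2.66% of all genes, and none was lower by those folds, beside 0.0638% and 0.643%. These 3 comparisons share the PBS array.

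Added to the other treatment, both agents gave larger values. Daidzein+PT over PT had a median of 0.38 (22 of 28 above 0, range -0.63 to 1.15), against -0.01 for all genes. In it 2 genes, Cpt2 and Hadhb, were 2-fold higher, beside 2.1% of all genes, 0 were 2-fold lower, beside 0.853%, 10 were 1.5-fold higher, beside 5.06%, and Pdk4 was 1.5-fold lower, beside 3.59%. Daidzein+PT over daidzein had a median of 0.20 (25 of 28 above 0, range -0.28 to 0.60), against 0.01 for all genes, and the list's median was 0.066 with 15 of 28 above 0 when arrays were scaled to their median. In that comparison 0 genes were 2-fold higher or lower, beside 1.09% and 0.102% of all genes, and Cpt2 was 1.5-fold higher, beside 3.25%.

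**Figure D1:**
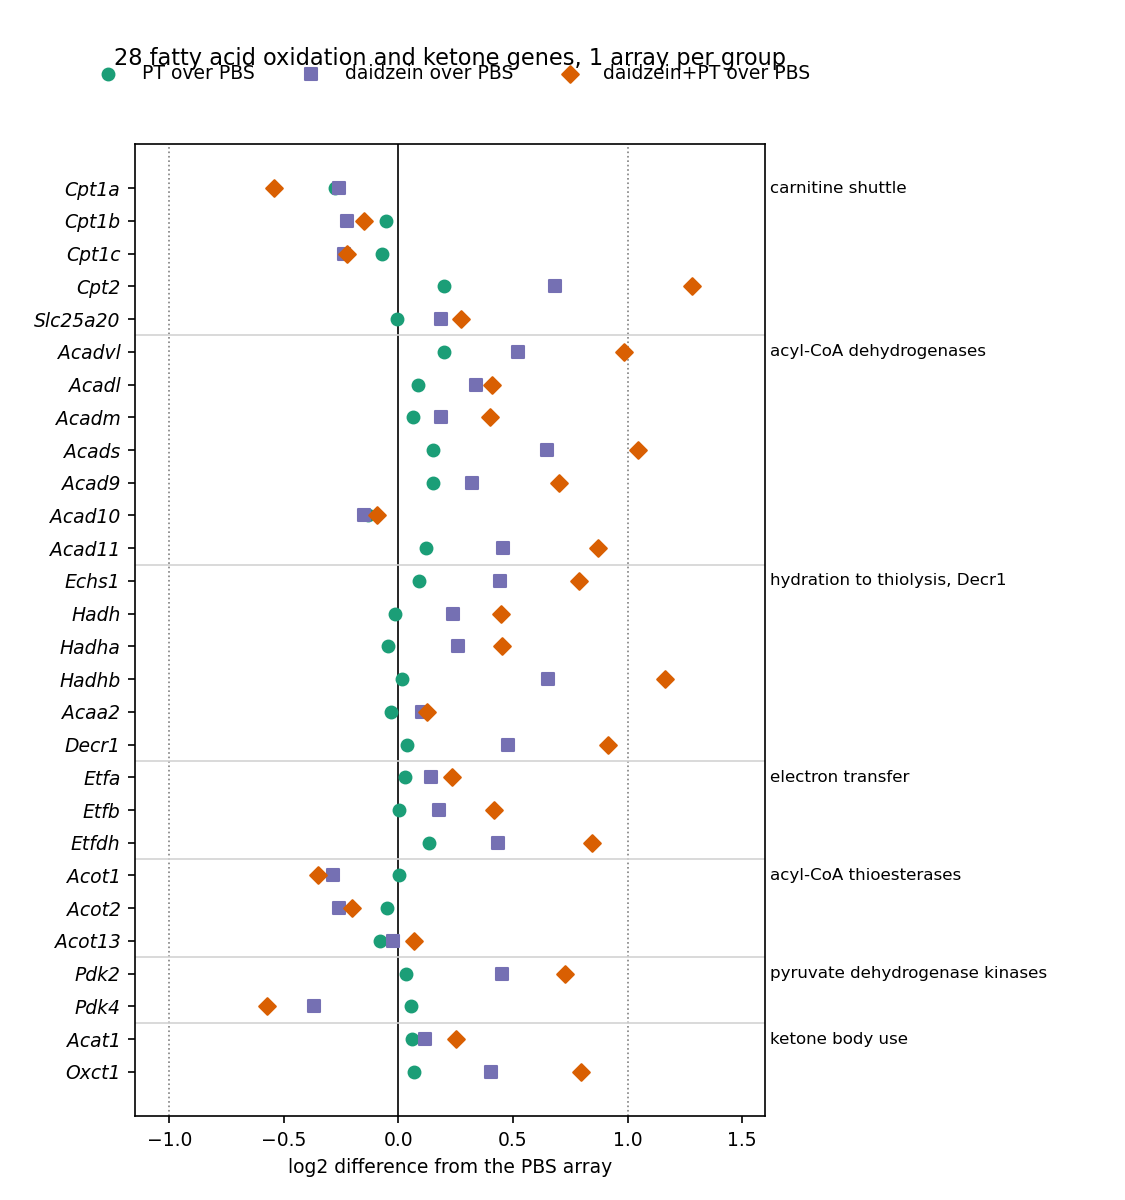
Log2 difference from the PBS array (horizontal axis) of the 28 measured genes, grouped by role, for PT (circles), daidzein (squares) and daidzein+PT (diamonds), 1 array each; dotted lines mark 2-fold. Diamonds of Cpt2, Hadhb and Acads lie beyond 2-fold, Cpt1a and Pdk4 lie left of 0 with both agents, and the circles, which lie between -0.28 and 0.20, would all lie left of 0 if arrays were scaled to their median.

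In the carnitine shuttle, Cpt1a and Cpt2 had differences of opposite sign in daidzein+PT over PBS. Cpt1a, the malonyl-CoA-sensitive gatekeeper of the pathway, had a scaled signal of 6065 with PBS, 5070 with daidzein, 4999 with PT and 4168 with daidzein+PT. It was highest on the PBS array and lowest with both agents, 1.46-fold below PBS (log2 -0.54). Its probe (chromosome 19, 3385374 to 3385433, mm9) was printed 10 times per array, and the spots ranged from 5575 to 6368 with PBS and from 4050 to 4385 with both agents (2 of 10 spots left out as outliers there), ranges that show only the technical spread of spots within an array, not that between cultures. Its other, dimmer probe gave the same -0.54 for daidzein+PT over PBS, but -0.04 for daidzein alone, where the brighter probe gave -0.26.

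Cpt2, which returns the acyl group to coenzyme A inside the mitochondrion, had 3246 with PBS, 5218 with daidzein, 3724 with PT and 7892 with daidzein+PT (chromosome 4, 107576591 to 107576650, mm9). Each array with daidzein was above each array without it, and the difference was 2.43-fold with both agents (log2 1.28) and 1.61-fold with daidzein alone (log2 0.68). Its dimmer probe gave 1.04 and 0.59 for those comparisons. The 2 probes parted for PT over PBS, at 0.20 and -0.46, the largest gap between probes of a gene in the list (0.66). Daidzein+PT over PBS thus set Cpt2 and Cpt1a 1.82 log2 units apart.

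Slc25a20, the carnitine-acylcarnitine translocase, had 241 with PBS, 273 with daidzein, 240 with PT and 290 with both, a difference of 0.27 for daidzein+PT over PBS. Cpt1c, the isoform best known from neurons, had 774, 657, 737 and 663 in the same order of groups, highest with PBS (log2 -0.22 with both agents). Cpt1b, the muscle isoform, was dim, at 91.1, 77.9, 87.6 and 82.0, and its difference of -0.15 with both agents was smaller than the SD of 0.33 for genes of that signal.

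Among the acyl-CoA dehydrogenases, which open each turn of the spiral, 6 of 7 were higher with both agents than with PBS (median log2 0.70). Acads, for short chains, had 486 with PBS, 761 with daidzein, 539 with PT and 1005 with daidzein+PT (chromosome 5, 115560887 to 115560946, mm9). That was 2.07-fold for both agents, and the log2 difference of 1.05 became 0.96 with another background correction (normexp) and 0.85 with scaling to the array median, both under 2-fold. Acadvl, for very long chains, had 15817, 22737, 18145 and 31265 with PBS, daidzein, PT and both agents (chromosome 11, 69823722 to 69823781, mm9). The combination was 1.98-fold above PBS, just short of 2-fold, and daidzein alone 1.44-fold.

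Acad11, an acyl-CoA dehydrogenase for long chains, had 991 with PBS, 1358 with daidzein, 1076 with PT and 1810 with both agents (log2 0.87 over PBS). Acad9, which also helps to assemble respiratory complex I, had 2107, 2632, 2338 and 3429 in that order (log2 0.70). Acads, Acadvl, Acad11 and Acad9 therefore had the same order of arrays, with PBS lowest, PT and daidzein between and the combination highest; scaled to the array median, PT lay below PBS for each of them. The dehydrogenases for medium and long chains differed less: Acadm had 10535, 11987, 11018 and 13912 (log2 0.40) and Acadl had 1552, 1961, 1647 and 2058 (log2 0.41). For Acad10, a member of the family whose role is less well known, the signal was highest with PBS, at 3953 against 3561, 3604 and 3700, a difference of -0.10 with both agents that was smaller than the SD of 0.11 for genes of that signal.

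The enzymes of the remaining steps, with the auxiliary reductase Decr1, were all above PBS with both agents (6 of 6, median 0.62), although Acaa2 was below PBS (-0.07) when arrays were scaled to their median. Hadhb, the thiolase subunit of the trifunctional protein, had 3701 with PBS, 5822 with daidzein, 3737 with PT and 8284 with daidzein+PT (chromosome 5, 30510925 to 30510984, mm9). PBS and PT were level, daidzein was 1.57-fold above PBS and the combination 2.24-fold (log2 1.16, or 0.97 with median scaling). Hadha, the partner subunit with the hydratase and dehydrogenase activities, had 1006, 1202, 975 and 1375 in that order (chromosome 5, 30446215 to 30446274, mm9). Its difference with both agents was 0.45. The subunits, whose promoter windows overlap as given above, were thus 0.71 log2 units apart in that comparison, against 0.06 with PT alone and 0.40 with daidzein alone. Each subunit was read by 1 probe, and probes of 1 gene can differ too, by 0.44 for Decr1 in daidzein+PT over PBS.

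Echs1, the short-chain enoyl-CoA hydratase, had 5395 with PBS, 7327 with daidzein, 5738 with PT and 9307 with both agents (log2 0.79). Decr1, needed for the double bonds of unsaturated fatty acids, had 17517, 24405, 17952 and 32979 (log2 0.91), and its dimmer probe gave 0.48. In both genes the arrays with daidzein were the higher pair. Hadh, the short-chain hydroxyacyl-CoA dehydrogenase, had 4963, 5861, 4911 and 6772, which is 0.45 with both agents. Acaa2, the medium-chain thiolase, had 17725, 19044, 17340 and 19302. It was printed 10 times per array, with spots from 17219 to 18069 for PBS and from 18592 to 19953 for daidzein+PT, and its difference of 0.12 was close to the SD of 0.11 for genes of that signal.

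In the electron transfer group all 3 genes were higher with both agents than with PBS (median 0.42). Etfdh, the membrane dehydrogenase that passes electrons to ubiquinone, had 3282 with PBS, 4430 with daidzein, 3597 with PT and 5890 with both agents, a difference of 0.84. The subunits of the flavoprotein itself differed less, Etfb with 43798, 49559, 43829 and 58544 (log2 0.42) and Etfa with 9434, 10410, 9636 and 11093 (log2 0.23). All 3 were highest on the array with both agents, Etfa not so with median scaling.

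The acyl-CoA thioesterases, which release free fatty acids from coenzyme A, did not share the higher levels. Acot1, the cytosolic form, had 681 with PBS, 558 with daidzein, 681 with PT and 533 with both agents (log2 -0.35). Acot2, its mitochondrial neighbour, had 414, 346, 400 and 360 (log2 -0.20). In both genes the arrays with daidzein were the lower pair. The sequences of these neighbours are alike, and whether a probe reads both was not analysed here. Acot13 had 11833, 11648, 11203 and 12416, all within 0.15 log2 units of each other.

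The pyruvate dehydrogenase kinases had differences of opposite sign. Pdk2, the widely expressed form, had 380.4 with PBS, 521 with daidzein, 389 with PT and 629 with daidzein+PT (chromosome 11, 94887669 to 94887728, mm9), which is 1.65-fold for both agents over PBS (log2 0.73, and 0.69 by its dimmer probe). Pdk4, the form known for its induction by fasting, had 2385, 1848, 2474 and 1603 in that order (chromosome 6, 5433441 to 5433500, mm9). Both arrays with daidzein were below both without it, by 1.49-fold for the combination over PBS (log2 -0.57) and 1.54-fold over PT (log2 -0.63). The kinases stood 1.30 log2 units apart in daidzein+PT over PBS and 1.32 in daidzein+PT over PT.

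**Figure D2:**
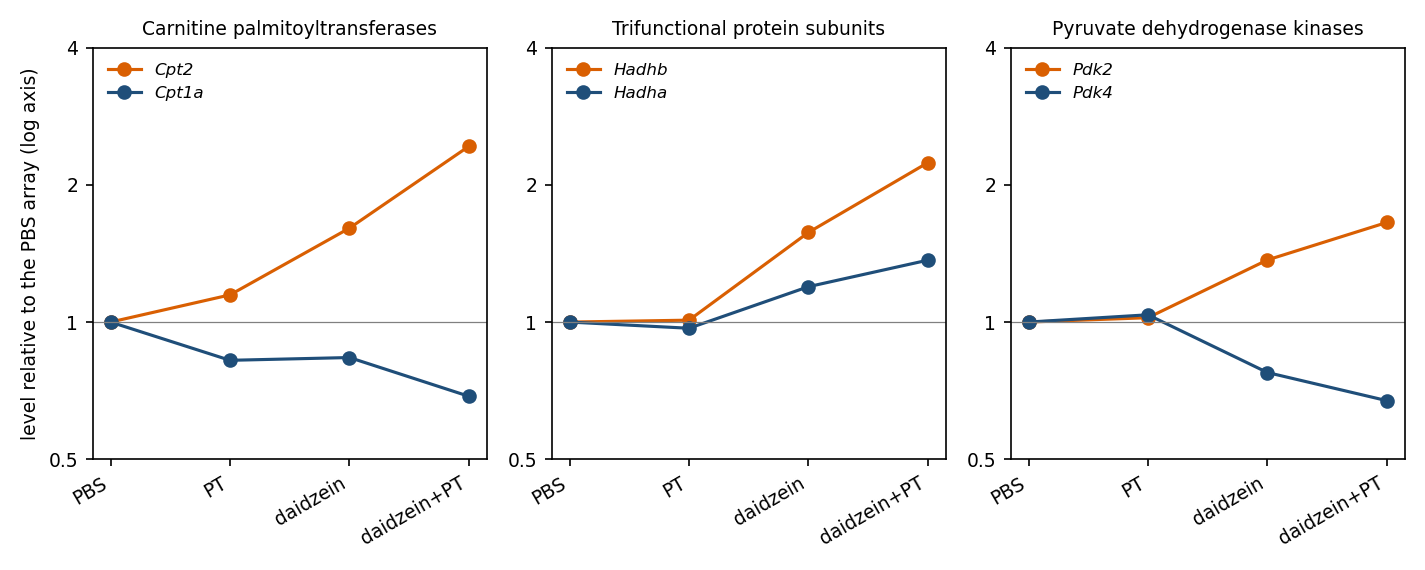
Level relative to the PBS array (log axis, 1 array per group) on the PBS, PT, daidzein and daidzein+PT arrays for Cpt2 and Cpt1a, Hadhb and Hadha, and Pdk2 and Pdk4; lines join the points of a gene. With both agents Cpt2 reached 2.43 and Hadhb 2.24 times the PBS level, Hadha 1.37 and Pdk2 1.65 times, while Cpt1a and Pdk4 lay at 0.69 and 0.67.

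For ketone body use, Oxct1, the transferase that activates acetoacetate in tissues that burn ketones, had 15807 with PBS, 20924 with daidzein, 16581 with PT and 27453 with both agents, which is 1.74-fold over PBS (log2 0.80). Acat1, the mitochondrial acetoacetyl-CoA thiolase, had 4216, 4574, 4391 and 5012 (log2 0.25). Oxct1 was highest with the combination in either scaling, Acat1 only with the 75th percentile. Bdh1, which interconverts hydroxybutyrate and acetoacetate, was not well above background on any array by any of its 3 probes.

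The 2 pairs for each agent share no array and allow each difference to be seen in separate arrays. Daidzein over PBS and daidzein+PT over PT were both above 0 for 20 of 28 genes, a pattern found in 30.2% of all genes, and both below 0 for 6 (Cpt1a, Cpt1b, Cpt1c, Acot1, Acot2 and Pdk4). The first count was 20 in each of the 7 other ways of processing too. The second ranged from 5 to 7 over the ways of processing, and its share over all genes was not counted. Of the 6, Cpt1b, at -0.23 and -0.10, lay within the SD of 0.33 for genes of its signal. PT over PBS and daidzein+PT over daidzein were both above 0 for 16 of 28, against 26.1% of all genes, but for 0 of 28 when arrays were scaled to their median. Cpt1a was below 0 in both PT pairs, at -0.28 in each.

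**Figure D3:**
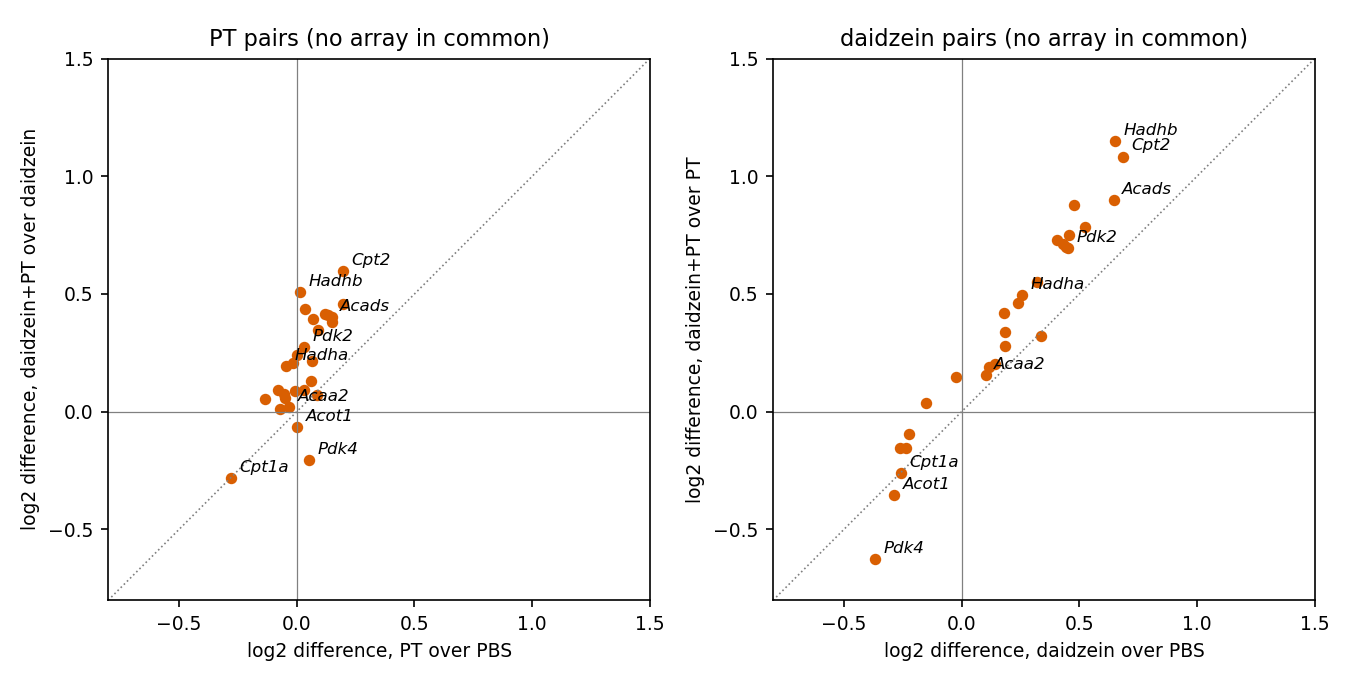
Log2 differences of the 28 genes in the pairs of arrays that share no array: PT over PBS against daidzein+PT over daidzein (left) and daidzein over PBS against daidzein+PT over PT (right); each point is a gene and the dotted diagonal marks equal differences. On the right 20 genes lie above 0 on both axes and 6 below 0 on both; on the left 16 lie above 0 on both, and 0 would if arrays were scaled to their median.

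Levels with both agents were higher than the sum of the separate log2 differences for most of the list. The departure from additivity (PT difference with daidzein minus PT difference without it) had a median of 0.21 and was above 0 in 24 of 28 genes, while all genes had a median of 0.04 with 58.0% above 0. By the brightest probe of each gene it was largest for Hadhb at 0.50, Cpt2 at 0.40 and Decr1 at 0.40, and lowest for Pdk4 at -0.26. None of the list reached 1.5-fold by these probes, beside 2.42% of all genes higher and 2.96% lower. Dimmer probes parted from them, with 0.91 for Cpt2, which is past 1.5-fold, and 0.17 for Decr1. For Cpt1b the dimmer probe gave -0.43 and the brighter 0.13, and the dimmer probe of Cpt1a gave -0.26. The departure sets slide columns 2 and 3 against columns 1 and 4, so it and slide position cannot be told apart.

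**Figure D4:**
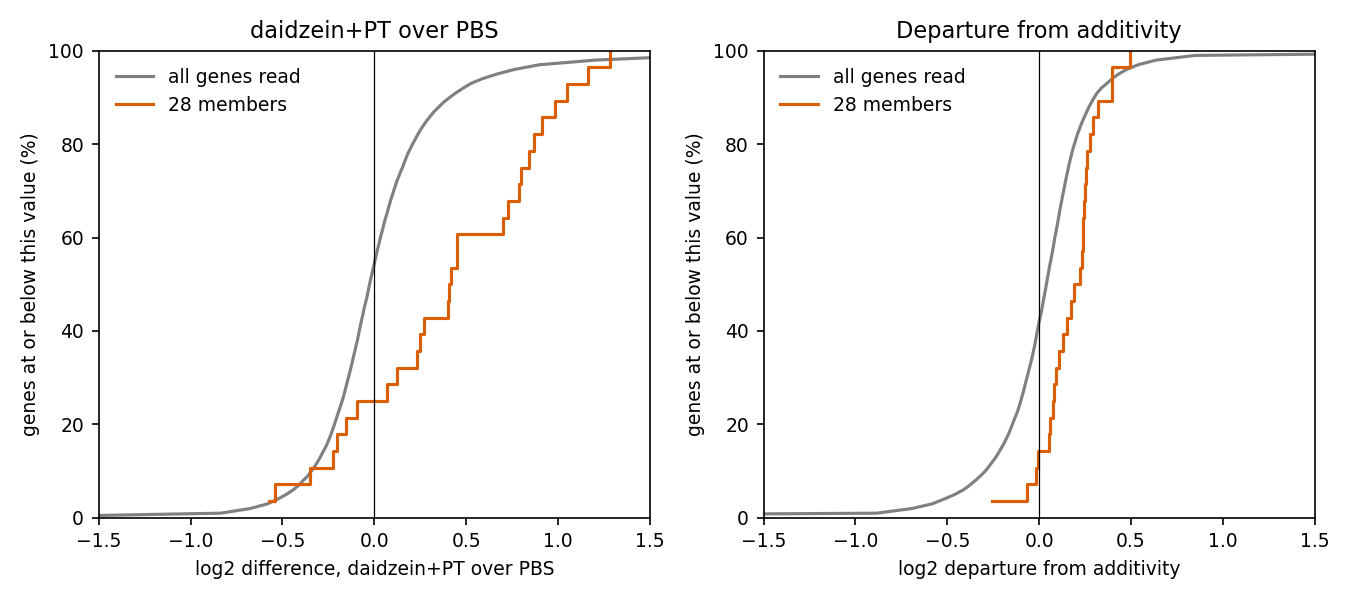
Share of genes (vertical axis, percent) at or below each log2 value (horizontal axis) for daidzein+PT over PBS (left) and for the departure from additivity (right), for the 28 genes of the list and for all measured genes, 1 array per group. On the left the list's median is 0.41 against -0.03 for all genes, with the curves meeting near their low ends; on the right the medians are 0.21 and 0.04.

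Genes that supply the oxidation route were described from 6 further lists. Of the genes for fatty acid activation, carnitine transport and malonyl-CoA control, 13 of 14 were measured, and 3 were 2-fold higher and 0 lower in daidzein+PT over PBS (median 0.23), beside the 2.52% and 0.547% of all genes given above. Acsl1, the main acyl-CoA synthetase of adipocytes, had 6040 with PBS, 25348 with daidzein, 13906 with PT and 46037 with both agents (log2 2.93). Crat, carnitine acetyltransferase, and Dbi, the acyl-CoA binding protein, had differences of 1.42 and 1.40. The same list had 1 gene 2-fold higher with PT alone, beside 0.877% of all genes, and 1 with daidzein alone, beside 1.1%, in both cases Acsl1.

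All 11 genes of auxiliary, branched-chain and odd-chain oxidation were above 0 in daidzein+PT over PBS (median 0.52). Only Hibch, the hydrolase of valine breakdown, was 2-fold higher (log2 1.35), beside 2.52% of all genes. Of 12 genes of the pyruvate dehydrogenase complex, its other regulators and the pyruvate carrier, 2 were 2-fold higher and 0 lower (median 0.45). Over all genes the shares were 2.52% and 0.547%. The 2 genes were Pdhb, a subunit of the E1 enzyme, at 1.37 and the pyruvate carrier gene Mpc1 (Brp44l on the array) at 1.27. Other acyl-CoA thioesterases had a median of -0.02 over 7 of 11, with 0 past 2-fold, and Acot8, a peroxisomal thioesterase, had the largest difference, 0.33.

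Of the genes of ketone transport and cytosolic use, Slc16a7, a monocarboxylate transporter, had 343 with PBS, 286 with daidzein, 545 with PT and 256 with daidzein+PT. It was highest with PT alone and was 2-fold lower in daidzein+PT over PT (log2 -1.09), beside 0.853% of all genes, while daidzein+PT over PBS gave -0.42. In that list 7 of 9 genes were measured, and 0 were 2-fold higher in daidzein+PT over PBS, beside 2.52% of all genes.

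Of 16 nuclear receptors, coactivators and targets that govern oxidation, 13 were measured in daidzein+PT over PBS, with 4 at 2-fold higher, 0 lower and a median of 0.01. Over all genes, 2.52% were 2-fold higher and 0.547% lower. The 4 were Lpin1 (log2 2.08), a phosphatidate phosphatase that also acts as a coactivator, Pparg (1.80), the receptor that drives adipocyte differentiation, Ppargc1b (1.48), a coactivator of mitochondrial genes, and Nrip1 (1.16), a corepressor of oxidative genes. Lpin1, Pparg and Ppargc1b were also 2-fold higher in daidzein over PBS, at 1.49, 1.03 and 1.24. Ppargc1b was dim, with 24.1 with PBS and 67.4 with both agents. Of the 13 measured, 8 were above 0 in daidzein+PT over PBS. Some others, named after their values were seen, went both ways: Ppargc1a and Ppara had -0.27 and -0.18, and Esrra and Ppard had 0.62 and 0.20.

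Adipocyte markers followed the order of arrays seen in 16 of the 28 genes. Of 10 markers, 9 were well above background on all arrays and leptin (Lep) on none. Their summed scaled signal was 38194 with PBS, 81934 with PT, 217990 with daidzein and 367361 with daidzein+PT. At least 2-fold higher than PBS were 7 of the 9 with PT, 9 with daidzein and 9 with both, beside 0.877%, 1.1% and 2.52% of all genes. The 10 preadipocyte and fibroblast markers had sums of 600328, 595214, 509854 and 531971 with PBS, PT, daidzein and daidzein+PT. Sums follow the brightest probes. By gene, 4 of the 10 were above PBS with PT, 0 with daidzein and 1 with both agents. In bulk RNA, fewer cells of a type and less RNA per cell cannot be told apart, and the part of these markers in the oxidation genes was not tested. Pparg is in both the regulator and the adipocyte list.

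Markers of other cells were above background only in part. Of 8 thermogenic adipocyte markers 4 were measured on all arrays, and Ucp1, Elovl3 and Prdm16 on none; the sum of the list was 894 with PBS, 1520 with daidzein, 1059 with PT and 3306 with both, and 2 of the 4 were above 0 in daidzein+PT over PBS. These were Cox7a1 (log2 1.97) and Cox8b (4.06), while Dio2 had -0.48 and Ppargc1a -0.27, and Dio2 had -1.06 in daidzein+PT over daidzein. Muscle markers were measured on all arrays for 1 of 8 (Acta1, with Myod1, Myog and Ckm on none). Macrophage markers were for 4 of 7 (Itgam, Csf1r, Cd68 and Cd14, with Emr1 and Ptprc on none). Endothelial markers were for 2 of 5 (Kdr and Pecam1, with Cdh5, Tek and Vwf on none). Testis markers were for 5 of 10 (Cyp17a1, Sox9, Prm1, Prm2 and Insl3, with Ddx4, Dazl, Tnp1 and Amh on none), and hepatocyte markers for 0 of 5. With PBS, Itgam had 11105, Kdr 4372 and Cyp17a1 2392, while Pecam1, Prm1 and Prm2 were dim (49.7, 22.4 and 23.0). Sums of these lists ranged over the arrays from 323 to 361 for muscle, 11402 to 12324 for macrophages, 4004 to 4442 for endothelium, 4923 to 5263 for testis and 30.8 to 89.8 for hepatocytes. Most of the macrophage sum was Itgam and most of the endothelial sum Kdr. The testis sum includes 1436 to 1633 for Insl3, read under the array name Rlf, and whether that probe reads Insl3 was not checked.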

How the data were processed

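The deposited spot intensities came from Agilent Feature Extraction, which had subtracted background and removed spatial trends, per the file headers. The headers give version 10.7.1.1 and the submitters' processing notes 9.5.1.1. The authors' deposited series table, an intensity on the linear scale, served as an alternative. Spots of controls and those marked as outliers were dropped, replicate spots of a probe were averaged on the log2 scale, each array's 75th percentile over probes was subtracted, and the probe with the highest mean signal stood for a gene. A gene entered a comparison when well above background on both arrays. Calls are folds of 2 and, as a named further rule, 1.5, described with no test, since each group had 1 array. An additive fit of both agents over the 4 arrays was not made. Outlier spots numbered 106 to 173 per array.

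The genes and all lists were chosen with earlier results of these data known. All genes of the list are named. Of each other list, genes past 2-fold in any comparison are named or, where there was none, the gene with the largest daidzein+PT over PBS difference. A gene that this rule selects is not reported here. Probe positions are on mm9, and their exon or UTR was not analysed here. Promoters are from RefSeq on GRCm38.p6. Python 3.11.15 and, for normexp (offset 50), limma 3.58.1 in R 4.3.3 were used. The comparison code was tested on simulated data. Alternatives were the background correction, 3 other scalings, no filter, the mean over probes and the deposited table. The number of arrays limits the precision.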

Additional observations from a re-analysis of the deposited data

How the results depend on the processing

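With 1 array per group no replicate could be left out. No paired analysis was possible because each group had 1 array, so no replicate numbers could be matched across groups. Of 7 alternatives, 6 kept the direction of the list's median in all 5 comparisons and its counts at 2-fold within 1.5 times. These 6 are not separate checks. Leaving out the filter could only add Bdh1, and the mean over probes could only alter the 7 genes with more than 1 probe read. The deposited table and quantile normalization gave nearly equal medians, 0.40 for each in daidzein+PT over PBS. Under the remaining one, each array's median in place of its 75th percentile, the list's median turned to -0.21 in PT over PBS, and it was 0.22 in daidzein+PT over PBS and 0.066 in daidzein+PT over daidzein, with 1 gene at 2-fold higher in daidzein+PT over PBS in place of 3. That scaling moved the median of all genes by -0.25, -0.20 and -0.13 in these comparisons, and the median over probes lies near background, since 49.7% to 51.4% of spots were well above it. A scaling on the median of genes well above background, added after seeing the data, gave 0.04, 0.40 and 0.18. The median departure from additivity ranged from 0.14 to 0.32 over the alternatives. Of 140 single values, 72 moved by more than the spread with median scaling and 6 with the mean over probes, where Cpt2 had -0.13 in PT over PBS. Counts over all genes moved more: 466 genes were 2-fold higher in daidzein+PT over PBS, 287 with normexp and 2669 without the filter, and 165, 42 and 2197 in PT over PBS. Genes 2-fold lower numbered 101 and 12 in these comparisons, and median scaling gave 372 higher and 212 lower in the former and 99 and 47 in the latter, where quantile normalization gave 140 and 30.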

Other observations

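Besides Pdk4, a few other genes known to be induced by fasting through PPAR receptors were picked out after their values were seen, and are given with no test. The picks are all lower genes and do not stand for all genes that PPAR receptors govern. In daidzein+PT over PBS, 21 of the 28 measured genes were above 0 and 7 below, and Acsl1 and Lpin1 had 2.93 and 2.08. Angptl4, an inhibitor of lipoprotein lipase, had a scaled signal of 58348 with PBS, 49980 with daidzein, 57692 with PT and 47095 with both agents, so that both arrays with daidzein were below both without it (log2 -0.31 for daidzein+PT over PBS). Fgf21, a hormone of fasting, was well above background only on the PBS and PT arrays. Cpt1a and Acot1, described above, were also lower with both agents than with PBS, at -0.54 and -0.35. Genes of malonyl-CoA, the inhibitor of CPT1, were picked out in the same way. Acaca, which makes it in the cytosol, had 4937, 6832, 5663 and 9675 with PBS, daidzein, PT and both agents (log2 0.97 for both over PBS), Acacb, the form at the mitochondrial surface, had a difference of 0.23, and Mlycd, which breaks malonyl-CoA down, had 1662, 2401, 1787 and 2924 (log2 0.81).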
